A study of Mus musculus with 12 samples.

Results

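The data described here are the transcript levels of 10 C-type lectin receptors in bone marrow-derived dendritic cells (BMDCs): Clec4a2, Clec4d, Clec4e, Clec4n, Clec7a, Clec9a, Clec10a, Clec12a, Cd209a and Mrc1. They were taken by gene name from a table of 41709 genes, and all 10 names were found. The cells were grown from mouse bone marrow for 10 days with GM-CSF, selected with magnetic beads for surface MHC class II, and either left unstimulated or given 100 ng/mL LPS for 24 h (per the labels, whereas the study's methods say overnight). Every mouse was homozygous for a CD18 gene (Itgb2, the common β2 integrin chain) with a floxed exon 3. CD18fl/fl mice carried no Cre and served as controls, whereas CD18CD11c cKO mice (CD18ΔCD11c in the labels) also carried a Cre transgene under the CD11c promoter, so that deletion is limited to cells in which this promoter is active. Each of the 4 groups had 3 RNA libraries, numbered 1 to 3 in the sample titles. The age of the mice is not given in the sources used here, and nothing says that the libraries of a group came from separate mice or cultures, so p-values measure the spread between these libraries. The comparisons ask what LPS did within each genotype and how the genotypes differed within each state.

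C-type lectin receptors are surface proteins of myeloid cells that bind sugars, lipids or debris of microbes and dead cells. One branch signals through an immunoreceptor tyrosine-based activation motif (ITAM), either of its own or of the adaptor FcRγ, to the kinase Syk and the adaptor Card9: Dectin-1 (Clec7a, a receptor for fungal β-glucan), Dectin-2 (Clec4n, for fungal mannans), Mincle (Clec4e, for mycobacterial cord factor) and MCL (Clec4d, a partner of Mincle). A second branch carries inhibitory motifs, as in DCIR (Clec4a2) and MICL (Clec12a). The remaining members are grouped here as uptake receptors, whether or not they also signal. They are MGL1 (Clec10a, for galactose-type sugars), the DC-SIGN homologue Cd209a, the mannose receptor (Mrc1) and DNGR-1 (Clec9a). DNGR-1 binds actin of dead cells and marks conventional type 1 dendritic cells (cDC1).

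The stretch before the transcription start is shown for the 5 receptors on which the results turn and whose window of 250 bases holds no annotated exon. Clec4e was the receptor that rose most with LPS, Cd209a, Clec4a2 and Mrc1 were receptors that fell, and Clec4n was the most abundant of them. Each line gives the GRCm39 position of the 250 bases before the start of the GENCODE vM39 canonical transcript, read 5′ to 3′ on the strand of the gene. Capitals mark a match to 1 of 5 motifs searched on both strands, of which no 2 overlapped in these windows.
Clec4e (chr6:123266830-123267079, minus strand): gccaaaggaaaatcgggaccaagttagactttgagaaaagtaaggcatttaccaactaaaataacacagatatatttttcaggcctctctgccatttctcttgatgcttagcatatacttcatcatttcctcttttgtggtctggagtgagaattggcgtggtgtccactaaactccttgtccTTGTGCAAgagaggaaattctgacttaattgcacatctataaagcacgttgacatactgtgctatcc
Cd209a (chr8:3798985-3799234, minus strand): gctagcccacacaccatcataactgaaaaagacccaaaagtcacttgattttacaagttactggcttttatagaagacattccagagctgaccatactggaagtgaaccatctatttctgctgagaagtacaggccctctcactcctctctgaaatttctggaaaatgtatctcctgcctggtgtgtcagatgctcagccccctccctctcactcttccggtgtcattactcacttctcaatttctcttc
Clec4a2 (chr6:123100023-123100272, plus strand): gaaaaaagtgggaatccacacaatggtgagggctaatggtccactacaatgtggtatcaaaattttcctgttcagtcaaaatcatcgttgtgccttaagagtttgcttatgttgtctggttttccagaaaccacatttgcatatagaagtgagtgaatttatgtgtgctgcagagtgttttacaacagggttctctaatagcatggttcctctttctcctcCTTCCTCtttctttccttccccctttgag
Mrc1 (chr2:14233901-14234150, plus strand): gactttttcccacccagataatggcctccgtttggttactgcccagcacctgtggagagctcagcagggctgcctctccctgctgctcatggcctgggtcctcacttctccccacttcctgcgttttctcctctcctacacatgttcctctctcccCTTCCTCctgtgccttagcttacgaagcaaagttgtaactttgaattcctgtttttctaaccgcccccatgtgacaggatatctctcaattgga
Clec4n (chr6:123206552-123206801, plus strand): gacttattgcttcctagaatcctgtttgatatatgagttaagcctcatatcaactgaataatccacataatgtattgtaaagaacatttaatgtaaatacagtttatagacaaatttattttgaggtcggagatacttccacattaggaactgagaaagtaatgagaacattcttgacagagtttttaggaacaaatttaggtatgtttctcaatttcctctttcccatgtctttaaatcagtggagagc
The motifs were C/EBP (TTGCNNAA), AP-1 (TGANTCA), the PU.1 core (GAGGAAG), the interferon-stimulated response element core (GAAA, any 2 bases, GAAA) and the NF-κB consensus. All matches shown in capitals read on the strand opposite to the gene. A C/EBP match lies from 67 to 60 bases before the Clec4e start. A PU.1 core lies from 29 to 23 bases before the start of Clec4a2, and another from 94 to 88 bases before that of Mrc1. Over all 10 receptors, 1 window held the C/EBP motif (Clec4e), 3 the PU.1 core (Clec4a2, Clec10a and Mrc1) and 1 the interferon response core (Clec4d), while AP-1 and NF-κB letters were found in none. The same motifs were present in 9.34% (C/EBP), 10.3% (PU.1), 3.32% (interferon response), 6.18% (AP-1) and 7.63% (NF-κB) of the windows of 21757 protein-coding genes. The receptor windows held 0 to 5 CpG dinucleotides and 32.0% to 52.4% G and C, against medians of 8 and 53.2% over all these genes. These matches describe letters only.

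The 12 libraries held between 29689149 and 34037178 reads assigned to genes, so that 3 reads, taken as the floor of detection, correspond to at most 0.101 CPM before scaling. CPM are counts relative to the gene reads of a library in megareads, here scaled between libraries (TMM). The 10 dendritic cell markers together stood at 12835 to 33408 CPM and all were detected in every group. They include the MHC class II genes H2-Ab1, H2-Aa, Cd74 and Ciita, and the cells were selected for surface MHC class II. Their sum therefore does not tell dendritic cells from other cells with MHC class II. Itgb2, which checks the genotype labels, was lower in every CD18CD11c cKO library than in every CD18fl/fl library of the same state: 158 ± 34.8 against 394 ± 23.0 CPM unstimulated, and 108 ± 15.6 against 202 ± 56.3 CPM after LPS (SD, n = 3 each; exact permutation test, two-sided, p = 0.1 in both, the smallest that 3 against 3 allows). Replicate 3 stood apart in all 4 groups. Its summed dendritic cell markers were the lowest of each group, at 12835 to 16952 CPM against 19490 to 33408 CPM in replicates 1 and 2. Its summed plasmacytoid dendritic cell markers were the highest, at 24.8 to 41.4 CPM against 6.55 to 13.0 CPM. Its summed cDC1 markers (6 genes without Clec9a) were 166 to 784 CPM, against 996 to 4985 CPM in replicates 1 and 2, its summed B cell markers were 0.665 to 2.64 CPM against 8.83 to 139 CPM, and its mast cell and basophil markers were 38.4 to 164 CPM against 8.18 to 15.0 CPM. In bulk RNA, fewer cells of a type and less RNA per cell cannot be told apart, and the part of these cells in the receptor values was not tested. Values from a fit with a term for the replicate number (the block), and from a fit without replicate 3, are therefore given where they change a call or move the fold of a called receptor by more than 1.5 times.

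Per length of transcript, the receptors spanned more than 3 orders of magnitude. RPKM, which are CPM divided by the exon length in kilobases, are used for these levels only. Clec4n was the highest of the 10 in every group, at 1530 ± 1292 RPKM in unstimulated CD18fl/fl BMDCs (SD, n = 3). There followed Clec4d at 219 ± 21.6, Clec7a at 214 ± 119, Clec10a at 74.3 ± 66.2, Clec4e at 41.1 ± 39.3, Cd209a at 28.8 ± 11.3, Clec4a2 at 27.2 ± 13.1, Clec12a at 22.9 ± 14.6, Mrc1 at 6.64 ± 4.83 and Clec9a at 0.38 ± 0.15 RPKM. Only Clec4n was separate from its next neighbour at the top of this order, and only Clec9a at the bottom, whereas the libraries of the other 7 of 9 neighbouring pairs overlapped. After LPS the order of the CD18fl/fl group became Clec4n, Clec4e, Clec4d, Clec7a, Clec12a, Clec10a, Clec4a2, Mrc1, Cd209a and Clec9a. Here Clec4e stood at 847 ± 179 RPKM, below all libraries of Clec4n and above all of Clec4d. The orders in CD18CD11c cKO BMDCs were the same but for neighbours whose libraries overlapped. Together the 10 receptors took between 0.304% and 0.890% of all gene reads of a library, and Clec4n alone took 33.6% to 79.4% of the reads of the 10.

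**Figure D1:**
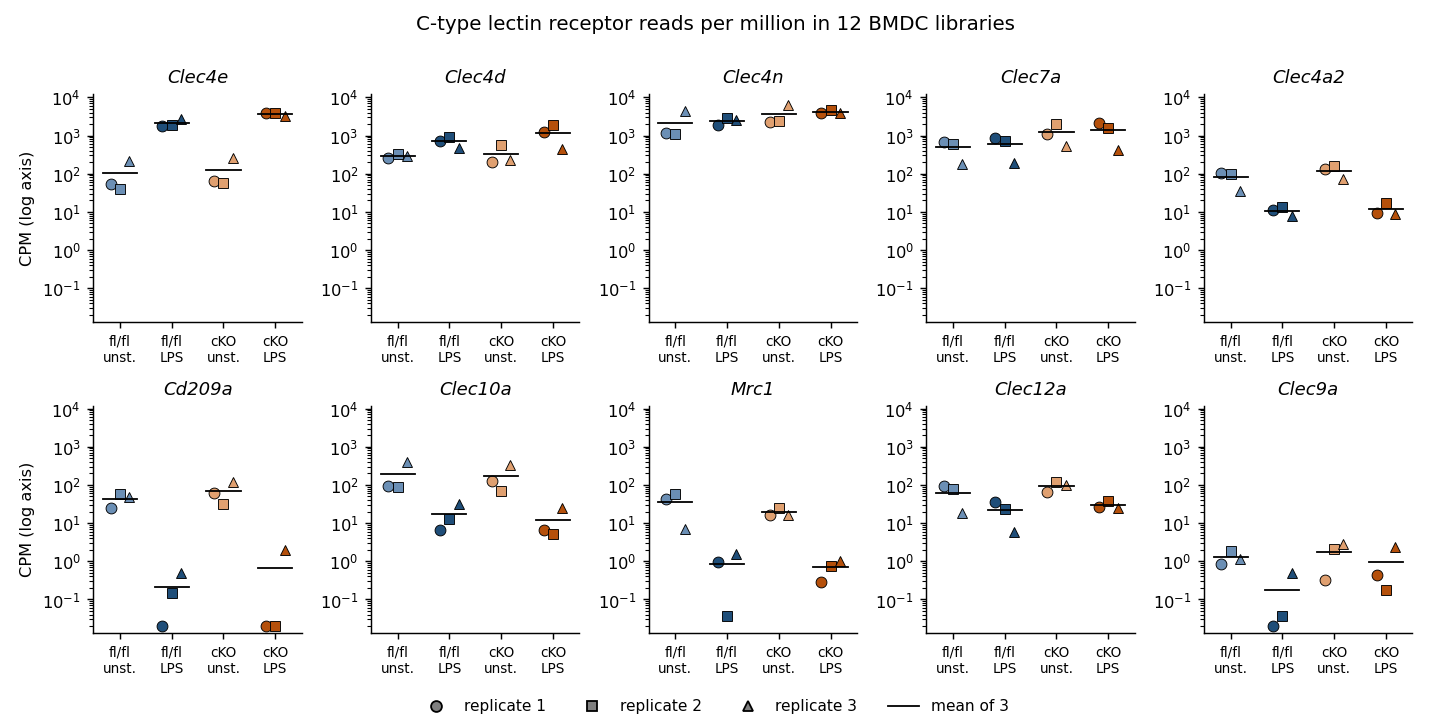
CPM of each receptor in the 12 libraries (log axis, one panel per gene; unst., unstimulated; symbols mark replicate numbers, horizontal lines the mean of 3; libraries with 0 reads are drawn at the bottom edge of the axis). Clec4e lay between 38.6 and 255 CPM in all unstimulated libraries and at or above 1816 CPM in all LPS libraries, while Cd209a went from at least 24.1 CPM to at most 2.01 CPM.

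Among the Syk-coupled receptors, LPS raised Clec4e most. In replicates 1, 2 and 3, Clec4e was at 54.3, 38.6 and 217 CPM in unstimulated CD18fl/fl BMDCs and at 1816, 1931 and 2648 CPM after LPS. For CD18CD11c cKO the values were 63.2, 57.3 and 255 CPM before and 3989.9, 3803 and 3213 CPM after LPS. Every LPS library lay above every unstimulated library, and replicate 3 was the highest of the unstimulated libraries in both genotypes. The log2 fold change was 4.38 ± 0.73 (SE; 20.8-fold; edgeR adjusted p = 0.0313) in CD18fl/fl and 4.82 ± 0.67 (28.2-fold; adjusted p = 0.021) in CD18CD11c cKO BMDCs. Without replicate 3 these became 40.3-fold and 60.2-fold, and without its unstimulated library alone 46.0-fold and 59.0-fold.

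Clec4d, the partner of Mincle, was higher after LPS in each same-numbered pair of both genotypes but passed the edgeR test on all 6 libraries only with the block. It went from 262, 319 and 292 CPM to 707, 929 and 461 CPM in CD18fl/fl BMDCs (with the block, log2 fold change 1.22 ± 0.26, edgeR adjusted p = 0.033, and without it 1.27 ± 0.31, adjusted p = 0.0749). In CD18CD11c cKO BMDCs it went from 203, 570.2 and 223 CPM to 1256, 1863 and 446 CPM (with the block 1.73 ± 0.31, adjusted p = 0.0107, and without it 1.76 ± 0.60, adjusted p = 0.149). It also passed without replicate 3 (1.49 and 1.90, adjusted p = 8.83e-05 and 0.0480) and in DESeq2 (adjusted p = 0.00954 and 0.0217). The 2 states did not overlap in CD18fl/fl, but in CD18CD11c cKO the LPS library of replicate 3 lay below the unstimulated library of replicate 2.

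Clec4n and Clec7a did not pass the test for LPS in either genotype, with or without the block. Clec4n, the receptor for mannans, was at 1146, 1081 and 4292 CPM unstimulated and at 1855, 2886 and 2566 CPM after LPS in CD18fl/fl BMDCs. It was higher after LPS in replicates 1 and 2 and lower in replicate 3, and the same split was seen in CD18CD11c cKO BMDCs, where it went from 2320.3, 2333 and 6338 CPM to 3780.5, 4578 and 3899 CPM. Its log2 fold change was 0.17 ± 0.57 (edgeR adjusted p = 0.882) and 0.11 ± 0.43 (adjusted p = 0.92). Without replicate 3 it rose in CD18fl/fl (1.09, adjusted p = 0.00201), while the value in CD18CD11c cKO was 0.74 (adjusted p = 0.0572). Clec7a, the β-glucan receptor, was at 694, 596 and 181 CPM unstimulated and 873, 699.5 and 186 CPM after LPS in CD18fl/fl BMDCs, a log2 fold change of 0.26 ± 0.67 (adjusted p = 0.848). In CD18CD11c cKO it was at 1093, 2055 and 536 CPM and then at 2180.1, 1617 and 424 CPM (0.12 ± 0.65, adjusted p = 0.94).

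The 4 uptake and 2 inhibitory receptors all had lower means after LPS in both genotypes, but not all passed the test. Markers of neutrophils, of B cells and of T and NK cells were mostly lower as well. All that were tested of the neutrophil (6 of 10), B cell (5 of 6) and T and NK cell lists (3 of 6) had lower fitted values after LPS in both genotypes. No marker of these lists passed without the block (edgeR; 3, 0 and 1 in CD18fl/fl and 1, 0 and 1 in CD18CD11c cKO at an unadjusted p under 0.05, while DESeq2 called 3, 0 and 3, and 1, 0 and 2). With the block, 1, 2 and 2 were called lower in CD18fl/fl (6.43% of all genes), and 1, 2 and 1 in CD18CD11c cKO (9.93%). Without replicate 3, 9 of 9, 4 of 6 and 3 of 3 markers tested were called lower in CD18fl/fl (24.3% of all genes). In CD18CD11c cKO, 3 of 7, 3 of 6 and 2 of 5 were called lower in that fit (7.99%). The summed neutrophil markers stood at 1332, 126 and 10.7 CPM in unstimulated and 44.4, 45.6 and 22.1 CPM in LPS-treated CD18fl/fl BMDCs, and at 195, 161 and 10.9 CPM and then 56.3, 69.8 and 16.1 CPM in CD18CD11c cKO, where Elane, Mpo and Retnlg were at 0 reads after LPS. Unstimulated replicate 1 of CD18fl/fl was thus the highest, and replicate 3 was lowest in all 4 groups. Within replicate 3, however, the neutrophil sum was higher after LPS in both genotypes. The sums were 0.665 to 139 CPM and then 1.55 to 42.3 CPM for B cell markers, and 2.40 to 35.1 CPM and then 1.48 to 4.17 CPM for T and NK cell markers, of which Klrb1c was at 0 reads in both LPS groups and Ncr1 in that of CD18CD11c cKO. Within replicate 3 the B cell sum also rose, from 1.02 to 2.64 CPM in CD18fl/fl and from 0.665 to 1.55 CPM in CD18CD11c cKO. In replicates 1, 2 and 3, the plasmacytoid dendritic cell sums went from 10.9, 13.0 and 41.4 CPM to 12.2, 8.07 and 34.0 CPM in CD18fl/fl. For CD18CD11c cKO they went from 6.55, 8.00 and 24.8 CPM to 10.1, 11.8 and 30.4 CPM. The part of these cells in the receptor values was not tested.

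Cd209a had the greatest fold of the 10 in both. It was at 24.1, 56.9 and 46.9 CPM (870, 2269 and 1753 reads) in unstimulated CD18fl/fl BMDCs and at 0, 0.15 and 0.48 CPM (0, 4 and 19 reads) after LPS, a log2 fold change of -7.56 ± 0.99 (188-fold lower; edgeR adjusted p = 0.0162). In CD18CD11c cKO BMDCs it went from 61.4, 31.4 and 119 CPM to 0, 0 and 2.01 CPM. This fall passed the test with the block (-7.40 ± 0.85, adjusted p = 0.0029) and not without it (-6.64 ± 1.55, adjusted p = 0.0615). It also passed without replicate 3 (-13.3 ± 0.86, adjusted p = 0.0031), where the remaining LPS libraries held 0 reads. A single LPS library, replicate 3, held all 62 reads of that group. In CD18fl/fl the fall without replicate 3 was 557-fold (adjusted p = 9.7e-07).

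Clec4a2, the inhibitory receptor DCIR, fell in both genotypes. In CD18fl/fl BMDCs it was at 107, 95.9 and 35.9 CPM unstimulated and 11.1, 13.1 and 8.01 CPM after LPS (log2 fold change -2.89 ± 0.46, 7.42-fold lower, edgeR adjusted p = 0.0264). In CD18CD11c cKO BMDCs it went from 131, 161 and 72.0 CPM to 9.56, 17.2 and 8.90 CPM (-3.41 ± 0.42, 10.6-fold lower, adjusted p = 0.0167). No LPS library reached the lowest unstimulated library.

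Clec12a, the inhibitory receptor MICL, changed less. It went from 95.1, 76.0 and 17.9 CPM to 35.9, 22.8 and 5.87 CPM in CD18fl/fl BMDCs, where the states overlapped because replicate 3 was low in both. The drop there passed with the block (-1.58 ± 0.21, edgeR adjusted p = 0.0102) or without replicate 3 (-1.55 ± 0.22, adjusted p = 0.000157), and otherwise not (-1.55 ± 0.78, adjusted p = 0.274). It fell in CD18CD11c cKO BMDCs from 66.3, 116 and 98.9 CPM to 26.2, 37.8 and 25.0 CPM (-1.72 ± 0.31, adjusted p = 0.036), and replicate 3 did not stand apart.

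Clec10a, which binds galactose-type sugars, was at 95.7, 89.4 and 387 CPM in unstimulated and 6.61, 12.7 and 31.7 CPM in LPS-treated CD18fl/fl BMDCs. The CD18CD11c cKO values were 124, 71.2 and 325 CPM and then 6.48, 5.16 and 25.0 CPM. The states did not overlap in either genotype, and replicate 3 was highest in all 4 groups. With the block it fell in both (log2 fold change -3.42 ± 0.30, edgeR adjusted p = 0.00459, in CD18fl/fl, and -3.96 ± 0.22, adjusted p = 0.000653, in CD18CD11c cKO), while without it the adjusted p was 0.0672 and 0.0541. Without replicate 3 both passed as well (adjusted p = 2.58e-06 and 0.00312).

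Mrc1, the mannose receptor and also a marker of alternatively activated macrophages, was at 42.3, 57.6 and 7.06 CPM in unstimulated and 0.96, 0.04 and 1.55 CPM in LPS-treated CD18fl/fl BMDCs. It went from 15.9, 25.3 and 16.4 CPM to 0.28, 0.76 and 1.04 CPM in CD18CD11c cKO BMDCs. In the main edgeR fit and in the same fit with the block, only the latter drop passed the test (without the block -4.81 ± 0.56, 28.0-fold lower, adjusted p = 0.0131). The drop in CD18fl/fl was -5.35 ± 1.18 without (adjusted p = 0.0573) and -5.15 ± 1.29 with the block (adjusted p = 0.0513). It was called without replicate 3 (-6.57, adjusted p = 2.9e-06), with no filter on low counts (adjusted p = 0.0205), with all 12 libraries in 1 fit (adjusted p = 0.0107), with a correction for exon length (adjusted p = 0.0495) and by DESeq2 (adjusted p = 1.94e-07). In CD18CD11c cKO the drop was 42.6-fold without replicate 3. Of the 10 macrophage markers, 4 were called lower in CD18fl/fl and 3 in CD18CD11c cKO with LPS (1.83% and 1.76% of all genes). None was called higher, although 3 and 2 had higher fitted values. With the block, 6 and 5 were called lower (6.43% and 9.93% of all genes). Without replicate 3, 7 were called lower and 2 higher in CD18fl/fl (24.3% and 23.2%), and 6 lower and 0 higher in CD18CD11c cKO (7.99% and 7.93%). The macrophage markers summed to 2014 to 4756 CPM in unstimulated and 594 to 1807 CPM in LPS libraries. Their part in the Mrc1 values was not tested.

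Clec9a was at no more than 2.86 CPM in any library and near the floor in some LPS libraries. It had 145 reads in the 3 unstimulated and 20 in the 3 LPS libraries of CD18fl/fl (1.26 ± 0.50 against 0.17 ± 0.27 CPM; log2 fold change -2.78 ± 1.30, edgeR adjusted p = 0.246), and 172 against 87 reads in CD18CD11c cKO (-0.85 ± 1.16, adjusted p = 0.731). With the block the CD18fl/fl value was -3.73 ± 1.37 (adjusted p = 0.121). Of the 20 reads after LPS, 0, 1 and 19 were in replicates 1, 2 and 3, and the drop was called without replicate 3 (-5.97 ± 1.33, adjusted p = 0.00314), where it rests on 1 read. The first exons of Clec9a lie within the span of its neighbour Clec1b on the same strand, so reads there could belong to either gene. The summed cDC1 markers were higher after LPS in each same-numbered pair, at 681 to 4985 CPM against 166 to 1482 CPM before, whereas Clec9a was lower in 5 of the 6 pairs.

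**Figure D2:**
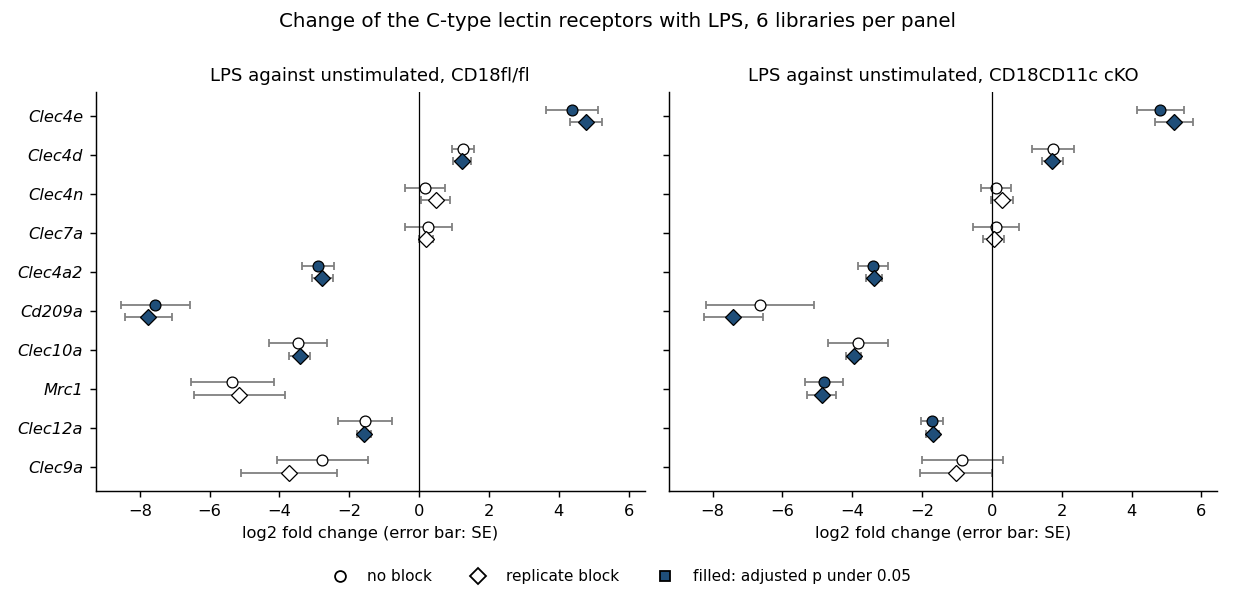
Log2 fold change of each receptor after LPS in CD18fl/fl (left) and CD18CD11c cKO BMDCs (right), without (circles) and with (diamonds) the replicate block; error bars are SE, filled symbols have an adjusted p under 0.05. Clec4e is to the right of 4 in both panels and Cd209a is to the left of -6.

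Counted over the 10 receptors, all of which passed the filter on low counts in both LPS comparisons, 1 was called higher (Clec4e) and 2 lower (Cd209a and Clec4a2) in CD18fl/fl BMDCs, where 2.06% of all 12744 genes tested were called higher and 1.83% lower. With the block, 2 were called higher and 4 lower, against 6.33% and 6.43% of genes. The states did not overlap for 2 receptors that were higher and 5 that were lower, against 13.6% and 15.9% of genes. In CD18CD11c cKO BMDCs, 1 was called higher and 3 lower (Clec4a2, Clec12a and Mrc1), against 2.23% and 1.76% of 12687 genes, and with the block 2 higher and 5 lower, against 10.2% and 9.93%. There the states were separate for 1 higher and 5 lower receptors, against 14.8% and 13.4% of genes. The median log2 fold change of the 10 was -2.17 in CD18fl/fl and -1.28 in CD18CD11c cKO, against -0.02 and -0.01 over all genes tested. Without any 1 of the 4 libraries of replicates 1 and 2, no receptor passed in CD18fl/fl, as was true of all 13158 to 13409 genes tested (1916 to 2134 at an unadjusted p under 0.05), while Clec4e stayed at 3.98 to 4.48 (adjusted p 0.107 to 0.126). In CD18CD11c cKO only Mrc1 passed, without the LPS library of replicate 1 (adjusted p = 0.0431), and 0 to 21 genes were called higher and 0 to 5 lower in these fits. Clec12a was also lost there without the unstimulated library of replicate 3 (adjusted p = 0.0557). Without replicate 3 in both states, 3 receptors were called higher and 6 lower in CD18fl/fl, where 23.2% and 24.3% of 12924 genes were, and 2 higher and 5 lower in CD18CD11c cKO, against 7.93% and 7.99% of 12872 genes.

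Between the genotypes, Clec7a, Clec4n and Clec4e were higher in CD18CD11c cKO than in CD18fl/fl BMDCs in all 3 same-numbered pairs of both states. The share of all genes with this pattern was not computed, so it does not set these receptors apart from other genes. In unstimulated cells, Clec7a was at 1093, 2055 and 536 CPM against 694, 596 and 181 CPM, and Clec4n at 2320.3, 2333 and 6338 CPM against 1146, 1081 and 4292 CPM. The genotypes overlapped because replicate 3 was low for Clec7a and high for Clec4n. Without the block, none of the 10 receptors passed, and 0% of all 12876 genes did (edgeR; 0 receptors and 2159 genes at an unadjusted p under 0.05, while DESeq2 called 0 receptors and 538 genes).

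With the block, 3 receptors were called higher and 0 lower in unstimulated CD18CD11c cKO BMDCs, against 12.1% of genes called higher and 8.16% lower. These were Clec7a (log2 difference 1.40 ± 0.23, 2.63-fold, adjusted p = 0.00835), Clec4n (0.95 ± 0.17, 1.94-fold, adjusted p = 0.0102) and the inhibitory Clec4a2 (0.73 ± 0.18, 1.66-fold, adjusted p = 0.0272). Over all alternatives the adjusted p ranged from 0.00835 to 0.939 for Clec7a, from 0.0102 to 0.942 for Clec4n and from 0.0272 to 0.950 for Clec4a2. With the block and scaling to library size, Clec4a2 was no longer called (adjusted p = 0.183), nor was Clec4n with the block and a correction for exon length (adjusted p = 0.0754). Mrc1 was lower in CD18CD11c cKO in replicates 1 and 2 (15.9 and 25.3 against 42.3 and 57.6 CPM) and higher in replicate 3 (16.4 against 7.06 CPM), and was called lower only without replicate 3 (-1.22, adjusted p = 0.0422). Clec7a (1.35, adjusted p = 0.0405) and Clec4n (1.12, adjusted p = 0.0207) were called higher in that fit too, in which 7.91% of genes were higher and 2.67% lower.

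After LPS, Clec7a was at 2180.1, 1617 and 424 CPM in CD18CD11c cKO against 873, 699.5 and 186 CPM in CD18fl/fl BMDCs, so that the log2 ratio within replicates 1, 2 and 3 was 1.32, 1.21 and 1.19, although the genotypes overlapped. For Clec4n and Clec4e the genotypes did not overlap: the lowest CD18CD11c cKO library was at 3780.5 CPM for Clec4n and 3213 CPM for Clec4e, and the highest CD18fl/fl library at 2886 and 2648 CPM. The share of all genes without overlap between genotypes was not computed, so this separation does not set these receptors apart from other genes. Of the 9 receptors that passed the filter (Cd209a did not), none passed the test without the block, as was true of 0% of 12441 genes (edgeR; 2 receptors, Clec4e and Clec4n, and 1212 genes at an unadjusted p under 0.05, while DESeq2 called 0 receptors and 150 genes).

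With the block, 3 were called higher and 0 lower, against 6.98% and 3.16% of genes. They were Clec7a (1.21 ± 0.13, 2.32-fold, adjusted p = 0.00641), Clec4n (0.74 ± 0.14, 1.67-fold, adjusted p = 0.0226) and Clec4e (0.77 ± 0.18, 1.71-fold, adjusted p = 0.0425). Over all alternatives the adjusted p ranged from 0.00641 for Clec7a, 0.0226 for Clec4n and 0.0343 for Clec4e up to 1.00 for each, and with the block Clec4e lost its call under scaling to library size (adjusted p = 0.087) and Clec4n with the correction for exon length (adjusted p = 0.0768). Without replicate 3 and the block, Clec7a (1.24, adjusted p = 0.0335) and Clec4e (1.02, adjusted p = 0.0343) were called higher, as were 3.24% of genes, with 0.977% lower. No uptake receptor passed. Clec10a was at 12.2 ± 11.1 against 17.0 ± 13.1 CPM, and Mrc1 at 0.69 ± 0.38 against 0.85 ± 0.76 CPM (SD, n = 3 each). Clec9a, by contrast, was higher in CD18CD11c cKO in all 3 same-numbered pairs, at 11, 4 and 72 against 0, 1 and 19 reads (log2 difference 2.43 ± 1.59, adjusted p = 0.681, and with the block 2.91 ± 1.19, adjusted p = 0.161). Clec12a was at 29.7 ± 7.05 against 21.5 ± 15.1 CPM, with a log2 ratio of 2.08 in replicate 3 and of -0.45 and 0.73 in replicates 1 and 2. The comparisons share libraries pairwise, since each group enters 1 LPS and 1 genotype comparison, and their values for a receptor are therefore not independent.

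**Figure D3:**
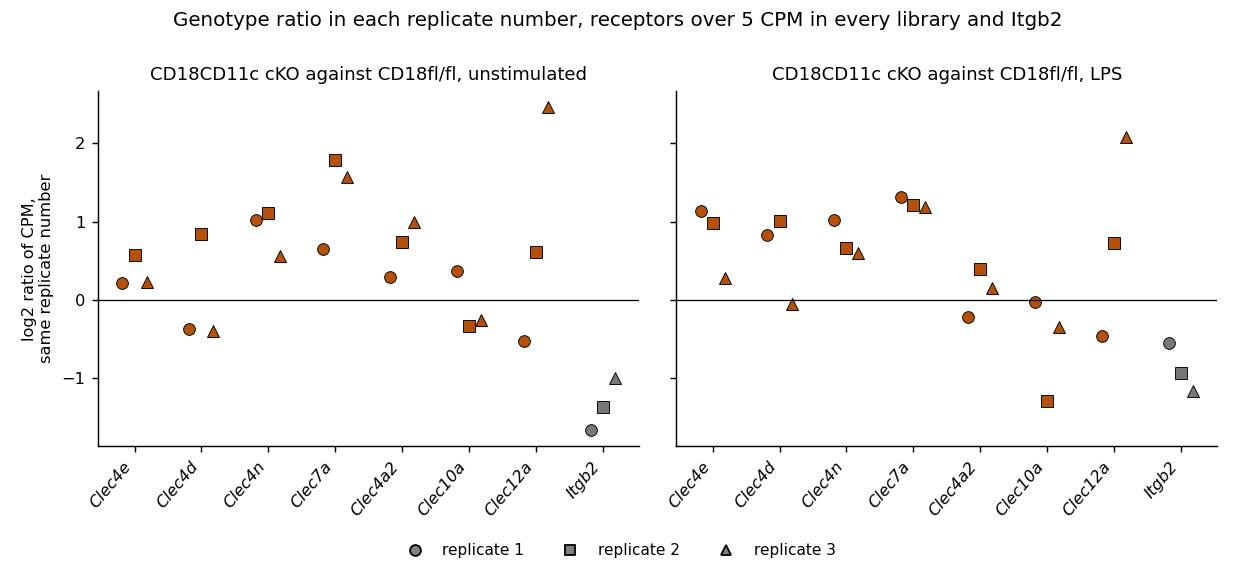
Log2 ratio of CPM, CD18CD11c cKO over CD18fl/fl, within each replicate number for the 7 receptors above 5 CPM in every library and for Itgb2 (grey), unstimulated (left) and after LPS (right). Clec7a and Clec4n lie above 0 at all 6 points and Itgb2 below 0 at all 6, while Clec4d and Clec12a straddle 0.

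Whether the LPS response itself differed between the genotypes was tested as an interaction over all 12 libraries. No receptor and 0% of 13752 genes passed without the block, and again 0% with it (edgeR; 0 receptors and 97 genes at an unadjusted p under 0.05 without the block; DESeq2 called 0 receptors and 1 gene). The interaction term was 0.51 ± 0.94 on the log2 scale for Clec4e, -0.06 ± 1.04 for Clec7a and -0.01 ± 0.77 for Clec4n (SE). The SE of each of these terms exceeded the term itself.

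Of the 10 receptors, 7 lie in 2 stretches of chromosome 6, which offers a view of their neighbours. In the first, of 183 kb, Clec4a2 (GRCm39 chr6:123083387-123120958) is followed by Clec4b2, Clec4n (chr6:123206802-123223980), Clec4d (chr6:123239070-123252224) and, on the opposite strand, Clec4e (chr6:123258748-123266829). Clec4a2 fell with LPS at one end while Clec4e rose at the other, and Clec4b2 between them was at 0 to 0.251 RPKM in the 4 group means. In the second, of 130 kb, Clec12a (chr6:129319654-129342266), Clec9a (chr6:129385825-129401726) and Clec7a (chr6:129438554-129449742) are interspersed with Clec12b, Clec1b and Clec1a. Group means of these neighbours reached 0.0555, 5.81 and 0.426 RPKM respectively, whereas those of Clec7a ran from 214 to 615 RPKM. Clec7a is annotated as a polymorphic pseudogene in the table. The other 3 receptors are Clec10a (chr11:70047023-70061660), Cd209a (chr8:3793397-3798984) and Mrc1 (chr2:14234203-14336868). At least 98.0% of the reads of each receptor were unique to it.

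**Figure D4:**
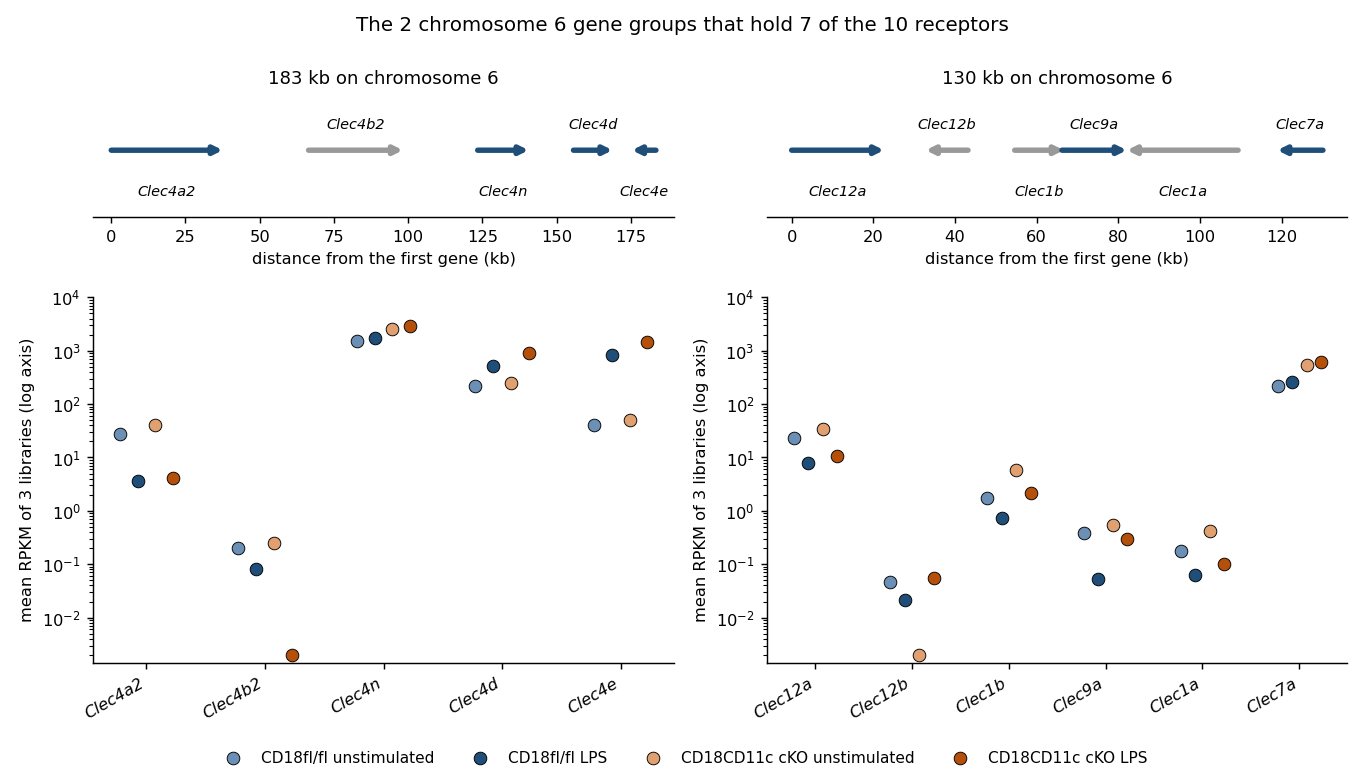
Gene order in the 2 stretches of chromosome 6 (top; arrows give the span and strand, receptors in blue, neighbouring coding genes in grey; distance from the first gene in kb) and the mean RPKM of each gene in the 4 groups (bottom, log axis, n = 3 each; means of 0 are drawn at the lower edge). Clec4n is at or above 1530 RPKM in all groups while its neighbour Clec4b2 is at or below 0.251 RPKM.

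Replicate 3 differed from replicates 1 and 2 in the receptors as well. In all 4 groups its Clec10a was at least 1.78 higher on the log2 scale than their mean, and its Clec7a was at -1.48 to -2.15 relative to them. Of 13752 genes, 4.12% were higher and 4.25% lower by more than 1 in all 4 groups. Clec4e and Clec4n were higher in replicate 3 of both unstimulated groups (2.25 and 2.08 for Clec4e, 1.95 and 1.45 for Clec4n), but differed by at most 0.50 after LPS. Clec4a2 was lower in replicate 3 of all groups, at -0.52 to -1.50 on the same scale.

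Across the 12 libraries, log2 CPM of Clec10a and Cd209a ran together (Pearson r = 0.953), as did Clec4a2 and Mrc1 (r = 0.881) and Cd209a and Mrc1 (r = 0.873). Clec4e ran opposite to Clec4a2 (r = -0.958) and to Mrc1 (r = -0.913), whereas Clec7a was unrelated to Clec4e (r = -0.02) and Clec4n (r = -0.06). Outside the receptors, the gene most alike was Layn for Clec4e (r = 0.987), Cryl1 for Cd209a (r = 0.987), Rpn1 for Clec10a (r = 0.986), Cysltr1 for Clec4a2 (r = 0.983), Flna for Mrc1 (r = 0.977), Tmem199 for Clec4n (r = 0.970), Rbks for Clec7a (r = 0.968), Paip1 for Clec4d (r = 0.948), Wtip for Clec9a (r = 0.942) and Mcm7 for Clec12a (r = 0.920). These are descriptions over 12 libraries that share the LPS difference and the split of replicate 3.

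Of 31 other C-type lectin-like receptors, 22 were tested in each LPS comparison. In CD18fl/fl BMDCs, Clec2d, a ligand of an NK cell receptor, was called higher (12.6 ± 2.88 to 32.1 ± 5.90 CPM; log2 fold change 1.35 ± 0.27, edgeR adjusted p = 0.0464) and Clec4b1 was called lower (15.2 ± 11.4 to 0.62 ± 0.20 CPM; -4.60 ± 0.80, adjusted p = 0.0338). In CD18CD11c cKO, none was called higher and Clec4b1 (-4.78 ± 0.55, adjusted p = 0.0131) and Clec5a (-2.20 ± 0.30, adjusted p = 0.0205) were called lower. Clec2g (1.77 ± 0.42, adjusted p = 0.0652), the endocytic receptor Ly75 (1.41 ± 0.43, adjusted p = 0.113), Cd209c (-6.77 ± 1.55, adjusted p = 0.0629) and Clec4a4 (-2.90 ± 0.79, adjusted p = 0.091) did not pass in CD18fl/fl. With the block, 3 were higher and 6 lower in CD18fl/fl (6.33% and 6.43% of all genes), and 5 higher and 7 lower in CD18CD11c cKO (10.2% and 9.93%). The median log2 fold change of those tested was -0.41 and -1.16 without the block. Between genotypes, none of 24 (unstimulated) and none of 20 (LPS) passed without the block (2 and 1 at an unadjusted p under 0.05, while DESeq2 called 0 and 0), and with it 8 were higher and 1 lower (12.1% and 8.16% of all genes), and 2 higher and 1 lower (6.98% and 3.16%).

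Downstream of the receptors, none of 24 adaptors, kinases and transcription factors of the pathway passed for LPS without the block in either genotype (9 in CD18fl/fl and 7 in CD18CD11c cKO at an unadjusted p under 0.05, while DESeq2 called 4 and 2). Card9, the adaptor shared by the Syk-coupled receptors, was at 35.2 ± 10.7 CPM unstimulated and 14.1 ± 3.14 CPM after LPS in CD18fl/fl BMDCs (-1.32 ± 0.31, edgeR adjusted p = 0.0652, and with the block -1.29 ± 0.30, adjusted p = 0.0433). In CD18CD11c cKO it was at 31.5 ± 15.1 and 10.4 ± 2.73 CPM (-1.63 ± 0.40, adjusted p = 0.0668, and with the block -1.59 ± 0.24, adjusted p = 0.00685). The phospholipase Plcg2 (-1.63 ± 0.46, adjusted p = 0.0962) and the calcineurin subunit Ppp3ca (-1.02 ± 0.27, adjusted p = 0.087) were next among the lower values in CD18fl/fl. The FcRγ gene Fcer1g (0.84 ± 0.30, adjusted p = 0.157), the deubiquitinase Usp15 (0.89 ± 0.26, adjusted p = 0.108) and the ubiquitin ligase Cblb (1.21 ± 0.47, adjusted p = 0.18) were the first among the higher. With the block, 2 were higher and 4 lower in CD18fl/fl (6.33% and 6.43% of all genes), and 2 higher and 6 lower in CD18CD11c cKO (10.2% and 9.93%). Between genotypes, none of 24 passed without the block in either state (4 and 4 at an unadjusted p under 0.05, while DESeq2 called 1, Tyrobp, and 0). With it, when 12.1% of all genes were higher and 8.16% lower, 1 was higher (Tyrobp, which encodes the ITAM adaptor DAP12) and 6 lower unstimulated, the kinase Syk among them (-0.70 ± 0.16, adjusted p = 0.0217), and 0 were higher and 3 lower after LPS (6.98% and 3.16% of all genes). Without the block, the median log2 difference of these 24 was -0.27 and -0.37, against -0.05 and -0.11 over all genes and 0.58 and 0.72 over the receptors tested.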

How the data were processed

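RNA was sequenced from 12 libraries of MHC class II-positive BMDCs. Per the study's methods, single-end reads were trimmed and aligned to GRCm39 with CLC Genomics Workbench at default settings, and the authors deposited a table per library with total and unique read counts per gene, not normalized. The labels' processing notes name GRCm38, yet the coordinates overlapped the same gene on GRCm39 for 99.9% of 41182 genes with an ID in GENCODE vM39, the 10 receptors included. The counting is not stated to use strand.

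Total counts of all genes were fitted per comparison on 6 libraries with edgeR 4.0.16 (R 4.3.3; filterByExpr with a minimum count of 10, TMM, quasi-likelihood test, Benjamini-Hochberg over all genes tested, adjusted p under 0.05). CPM are counts over TMM-scaled library sizes, and RPKM are CPM per kilobase of exon length. The SE is the log2 fold change over the square root of F. Depth, at 29689149 to 34037178 counts, limits values near 3 counts, the floor, for counting error only. The fitting code was also run on simulated counts without a replicate effect, as a check of the code only. Alternatives were DESeq2 1.42.0, RLE and library size scaling, other filters, unique counts, all 12 libraries in 1 fit, a length offset, a replicate block and left-out libraries.

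The replicate numbers in the titles are not said to mark a shared culture. Deviations from the group means correlated at 0.524 to 0.716 between libraries numbered 3. For libraries both numbered 1 or both numbered 2 the range was 0.265 to 0.451. It was 0.154 to 0.334 between replicates 1 and 2, and -0.571 to -0.321 between replicate 3 and the others. Deviations of 3 libraries from their mean sum to 0. A replicate 3 that stands apart can therefore give these signs, and they cannot show that every number marks a pair. The block is given beside the main values and not in their place. All 10 receptors and Itgb2 are named; in each list up to 3 genes a direction with the smallest adjusted p for LPS in CD18fl/fl, the genes of small counts, and the gene most alike each receptor over 12 libraries. Clec5a, Tyrobp and Syk were named after their values were seen. The receptors and lists were chosen with earlier results of these data known.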

Additional observations from a re-analysis of the deposited data

How the results depend on the processing

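Counts of called receptors moved with the replicate structure and, for LPS, also with other choices. For LPS in CD18fl/fl BMDCs (1 higher, 2 lower), the higher count was 2 with DESeq2, the replicate block, the block with library size scaling and the block with length offset, and the lower count was 4 with these, with no filter on low counts and with all 12 libraries in 1 fit. Leaving out replicates gave 0 to 3 higher and 0 to 6 lower. For LPS in CD18CD11c cKO (1 higher, 3 lower), the higher count was 2 with DESeq2 and the 3 fits with the block, the lower count 5 with no filter and the 3 fits with the block, and leaving out replicates gave 0 to 2 and 0 to 5. Between genotypes (0 called), the block gave 3 higher in both states, the block with library size scaling 2 and the block with length offset 2. Leaving out replicates gave 0 to 2 higher in both, and 0 to 1 lower unstimulated. The cause was not tested, and the fits with libraries left out also hold fewer samples. The log2 change of Clec4n with LPS turned to -0.16 (CD18fl/fl) and -0.15 (CD18CD11c cKO) with library size scaling and ranged from -0.28 to 1.13 and -0.21 to 0.77 with replicates left out. That of Clec7a turned to -0.12 and -0.0921 with library size scaling, to -0.12 and -0.16 with the block and that scaling, and ranged from -0.15 to 0.68 and -0.42 to 0.73 with replicates left out. Differences between genotypes near 0 also turned. In unstimulated cells, that of Clec4d was -0.17 with library size scaling, -0.31 with the block and that scaling, -0.18 with length offset and -0.35 with the block and length offset, that of Clec4e -0.0065 with library size scaling, and that of Clec9a -0.19 with the block and that scaling. With replicates left out they ranged from -0.42 to 0.51, -0.70 to 1.47 and -0.0388 to 1.03, and that of Clec10a from -0.89 to 0.94. After LPS, that of Clec4a2 was -0.13 with library size scaling and -0.17 with the block and that scaling, and that of Mrc1 0.0776 with the block and 0.29 with the block and length offset. With replicates left out they ranged from -0.24 to 0.29 and -0.92 to 0.44, that of Clec10a from -1.60 to 0.33 and that of Clec12a from -0.0320 to 1.11. The interaction of Clec4n was 0.0076 with library size scaling and 0.0325 with length offset, and that of Clec7a 0.0232 with library size scaling. With replicates left out they ranged from -1.06 to 0.65 and -0.66 to 0.53, and that of Clec4e from -0.73 to 1.57. Of the values for single receptors under all alternatives (every receptor tested for LPS and genotype, and these 3 for the interaction), 63 turned, 677 kept direction and side of the threshold, 68 gained a call and 43 lost one. Library size scaling moved the median of all genes to -0.32 and -0.23 for LPS and to -0.44 and -0.37 for genotype, and the calls for LPS in CD18fl/fl from 263 higher and 233 lower to 143 and 304. With the block it moved the genotype calls from 1555 higher and 1051 lower to 701 and 3882 unstimulated, and from 869 and 393 to 590 and 2052 after LPS. Depth limits Clec9a, and Cd209a and Mrc1 after LPS.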
